A study of Mus musculus with 6 samples.

Results

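The copines are a gene family of calcium-dependent membrane-binding proteins, and all 16 probe sets that the array's annotation assigns to a copine, Cpne1 to Cpne9, were followed in mouse cerebral cortex. They stand for 9 genes of the 18193 that the array names on probe sets with 1 symbol. The family was chosen by gene symbol, after Cpne9 was known to be far lower in the arrays labelled double knockout than in wild type. Every difference between those groups is therefore given for the copines as a description. No p-value is printed for one, and where a copine lay past the threshold of the fit over all probe sets this is recorded and nothing is read from it.

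Total RNA of 6 arrays was measured, 3 labelled Egr1 and Egr3 double knockout and 3 labelled wild type. The labels give no strain, sex, age, allele design or pairing, and do not say that each array stands for another animal, so any p-value measures only the spread between these arrays. Egr1 and Egr3 encode activity-induced zinc finger transcription factors, and the comparison concerns cortical RNA when both of these genes are targeted. The title of double knockout replicate 1 names no genotype, and its group comes from its description alone. Levels are the deposited signals, scaled so that the trimmed mean of each array was equal. That scaling acts on whole arrays and does not make the levels of different probe sets comparable. In whole tissue, fewer cells of a type and less RNA per cell cannot be told apart.

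The targeted genes did not both go with the label. The Egr3 probe set above the filter read 339, 370 and 507 signal units in the arrays labelled double knockout, against 1189, 2670 and 924 in wild type. The Egr1 probe set read 2116, 2647 and 2657 in the arrays labelled double knockout, against 1247, 2054 and 1430 in wild type. Egr3 fell by 1.80 on the log2 scale (SE 0.32, limma adjusted p = 0.0361), whereas the Egr1 difference of 0.67 did not pass (SE 0.17, limma adjusted p = 0.108). Leaving out any double knockout array or wild type replicate 1 ended the Egr3 call, and leaving out wild type replicate 2 let the Egr1 difference pass. A dim second Egr3 probe set, below the filter and so not tested, was also lower without overlap. It read 21.3, 17.0 and 14.7 units in the arrays labelled double knockout, against 39.2, 44.7 and 37.1 in wild type. Where the probes lie against the deleted parts was not given in the sources used here. Of 8 cortical excitatory neuron markers 7 lay above the filter, with summed signals of 12674 to 17168 in the arrays labelled double knockout, against 11090 to 13246 in wild type. Double knockout replicate 2 was the array with high Xist, at 3140 signal units against at most 42.5 in each other array, which marks a female. Wild type replicate 1 had dim spiked controls, with a median of 210 units against 493 to 729 on the other arrays.

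A copine carries tandem C2 domains, which bind phospholipid membranes when calcium rises, followed by a domain like the A domain of von Willebrand factor, which binds other proteins. In neurons, copines move from the cytosol to membranes as calcium enters, and so can bring partner proteins there. Cpne6, also called N-copine, is the best known in brain: it is enriched in excitatory neurons and reaches dendritic spines after synaptic activity, where it acts on the spine's actin through the GTPase Rac1.

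Because Egr proteins bind DNA, the bases before the start of transcription are shown for the 2 copines that were lowest relative to wild type. Sequences come from RefSeq on build GRCm38.p6, which is not a build named by the array files, and run 5′ to 3′ over the 250 bases before the start, on the strand of the gene. Capitals mark the GC box, GGGCGG or its reverse complement, a motif bound by Sp and Klf factors. The Cpne9 window is chr6:113282057-113282306 on the plus strand, and the Cpne5 window is chr17:29237791-29238040 on the minus strand.
Cpne9: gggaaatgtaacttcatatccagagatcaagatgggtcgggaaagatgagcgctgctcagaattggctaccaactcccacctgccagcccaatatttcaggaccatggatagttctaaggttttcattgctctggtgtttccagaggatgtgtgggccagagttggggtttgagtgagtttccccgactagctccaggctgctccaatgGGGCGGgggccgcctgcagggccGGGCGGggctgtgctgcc
Cpne5: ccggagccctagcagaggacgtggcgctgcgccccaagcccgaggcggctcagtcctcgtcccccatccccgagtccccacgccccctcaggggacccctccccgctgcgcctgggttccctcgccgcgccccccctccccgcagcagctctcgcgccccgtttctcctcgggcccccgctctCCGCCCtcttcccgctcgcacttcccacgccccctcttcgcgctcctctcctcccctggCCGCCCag

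Both windows held 2 GC boxes, in the sense direction in Cpne9 and in the antisense direction in Cpne5. The Egr site GCGNGGGCG, searched on both strands with N as any base, was in neither. RefSeq's table held 7 such windows for 6 copines (Cpne1, Cpne2, Cpne4 with a pair of starts, Cpne5, Cpne8 and Cpne9), and 0 of the 7 held the Egr site, against 4.74% of 32536 windows of all genes. A GC box was in 5 of the 7, against 33.0% of all windows. The Egr site and the GC box can overlap where a G follows the Egr site. The copine windows were 54.0% to 76.4% G or C, against a median of 52.4% over all windows. These letters describe the windows alone and say nothing of binding elsewhere.

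Of the 16 copine probe sets 12 passed the filter on dim signals, and each of the 9 genes had at least 1 of them. The filter asked for a mean log2(signal + 16) over the 6 arrays higher than 5.72, the median among all probe sets. The dimmest copine inside it was a Cpne3 probe set at 6.33 and the brightest outside it a Cpne7 probe set at 5.49. Of the 12, 2 (Cpne9 and Cpne5) lay past the threshold on the lower side in the arrays labelled double knockout (limma adjusted p under 0.05 over all 22518 tested probe sets), 0 on the higher side, and 10 did not pass. Over all tested probe sets 1.02% passed in either direction and 0.591% on the lower side. Since Cpne9 prompted the choice of the family, its place in that count was known beforehand. It also passed the filter through wild type alone, with a mean log2(signal + 16) of 5.48 in the arrays labelled double knockout, against 7.88 in wild type. The 12 log2 differences were split evenly, 6 below and 6 above 0, with a median of 0.011, against 0.0093 over all tested probe sets.

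Cpne9, a brain copine whose role is little known, had the largest difference of the family. Its single probe set read 34.5, 20.4 and 32.7 units in the arrays labelled double knockout, against 253, 235 and 176 in wild type. The groups did not overlap, and the lowest wild type array was wild type replicate 3. The mean was 29.2 ± 7.66 units in the arrays labelled double knockout and 221 ± 40.04 in wild type (SD, n = 3 each), a ratio of 0.132. On the log2(signal + 16) scale the difference was -2.39 (SE 0.19), and 0.0311% of tested probe sets had a larger one in either direction. Each double knockout signal lay below the median signal of its own array, 36.2 to 38.0 units, so the size of the difference is set in part by the pseudocount. It was -2.90 with a pseudocount of 1 and -1.61 with 64.

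Cpne5, a copine of the developing and adult nervous system, was the other one past the threshold. It read 200, 183 and 179 units in the arrays labelled double knockout, against 408, 399 and 400 in wild type. The groups did not overlap, and the 3 wild type arrays lay within 1.02-fold of each other. The mean was 187 ± 11.1 units in the arrays labelled double knockout and 402 ± 4.71 in wild type (SD, n = 3 each), a ratio of 0.465. The log2 difference was -1.04 (SE 0.10), and 0.666% of tested probe sets differed by more. These signals stood well above the array medians, and the difference stayed between -1.10 and -0.89 under the alternatives. With double knockout replicate 2 and wild type replicate 1 both left out, the differences were -1.02 for Cpne5, then short of the threshold in that smaller fit, and -2.15 for Cpne9.

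**Figure D1:**
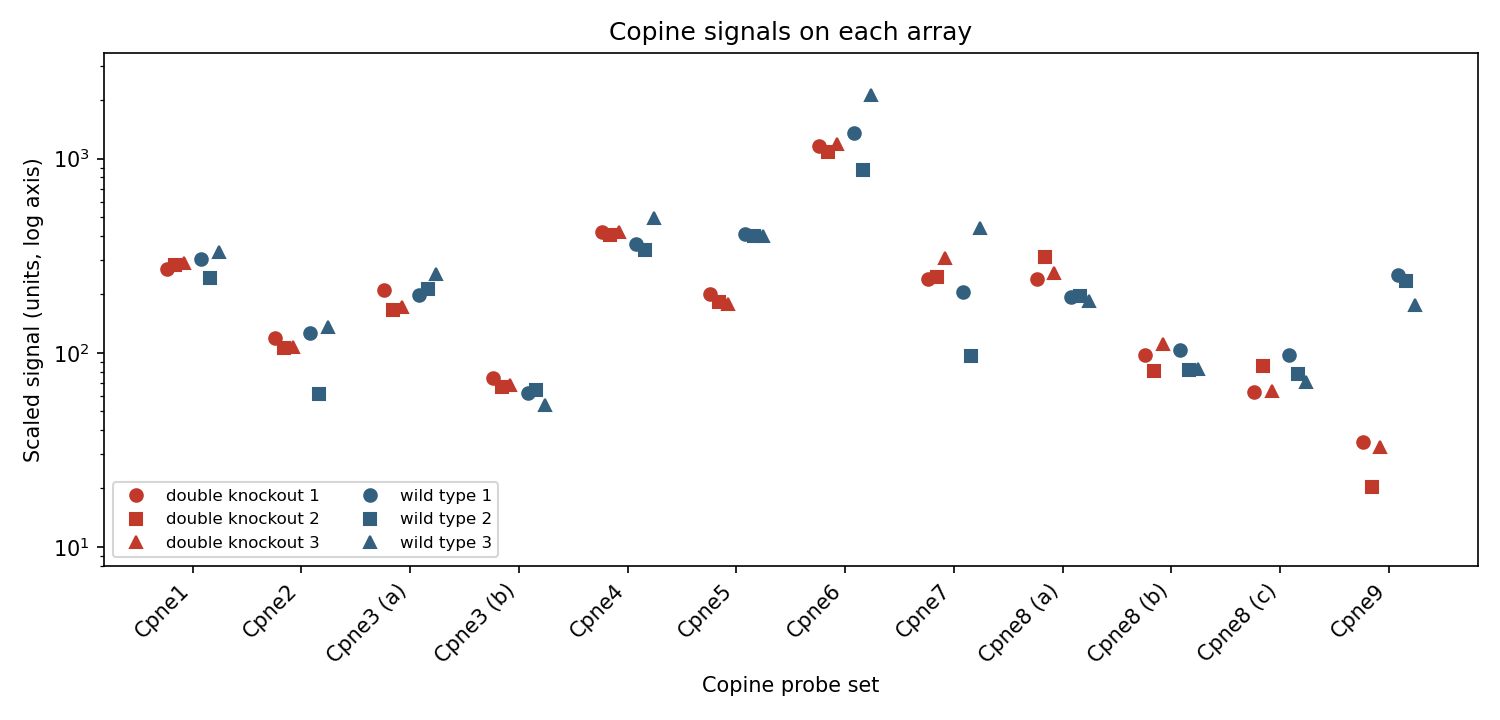
Signal of each of the 12 tested copine probe sets (horizontal axis) on each array, in scaled units on a log axis, with arrays labelled double knockout in red left of wild type in blue and one symbol shape per replicate number. Cpne9 and Cpne5 show red points far below blue ones, and for Cpne2, Cpne6 and Cpne7 the blue points spread more widely than the red. Letters a to c mark the probe sets of a gene from bright to dim.

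The copines known best from excitatory neurons and retina overlapped between the groups. Cpne6 read 1163, 1084 and 1185 units in the arrays labelled double knockout, against 1353, 873 and 2115 in wild type. The double knockout arrays lay inside the wild type range, and the log2 difference was -0.25 (SE 0.25). It was 0.071 without wild type replicate 3. This probe set carries the suffix that Affymetrix gives to probe sets matching more than 1 transcript. Cpne6 is the only 1 of the 9 copines on a chromosome that carries Egr1 or Egr3, within 20 Mb of Egr3 in RefSeq's GRCm38.p6 table. Cpne4, expressed in brain and in retinal ganglion cells, read 417, 406 and 417 units in the arrays labelled double knockout, against 364, 339 and 494 in wild type. Its groups overlapped too, with a log2 difference of 0.07 (SE 0.14), or -0.037 without wild type replicate 2. A dim second Cpne4 probe set, below the filter, read 16.2, 11.8 and 2.21 in the arrays labelled double knockout, against 19.7, 15.1 and 20.3 in wild type arrays.

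Cpne7, which in mouse has been linked to the differentiation of tooth-forming cells, read 240, 244 and 309 units in the arrays labelled double knockout. In wild type it read 207, 96.7 and 437, so the wild type arrays reached both lower and higher. The log2 difference was 0.31 with an SE of 0.39, and it was -0.19 without wild type replicate 2. A dim second probe set, below the filter, read 24.7, 30.1 and 29.2 units in the arrays labelled double knockout, against 22.9, 29.5 and 39.5 in wild type.

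Among the widely expressed copines, Cpne8 had the largest positive difference of the family, on 1 of its 3 probe sets, and it did not pass. The brightest read 240, 313 and 256 units in the arrays labelled double knockout, against 193, 195 and 185 in wild type. The groups did not overlap, with a log2 difference of 0.46 (SE 0.13). The other Cpne8 probe sets overlapped and disagreed in sign, at 0.08 (SE 0.16) and -0.18 (SE 0.17), the first of them -0.0082 without double knockout replicate 3, and both read between 63.0 and 110 units over all arrays. Cpne3, which binds the receptor ErbB2 in human cells, also disagreed between its tested probe sets. The brighter read 210, 166 and 173 units in the arrays labelled double knockout, against 197, 214 and 253 in wild type, and the groups overlapped, with a log2 difference of -0.25 (SE 0.14). The dimmer read 74.4, 66.8 and 68.1 units in the arrays labelled double knockout, against 61.8, 63.98 and 54.1 in wild type, without overlap but with a difference of 0.18 (SE 0.14). A further pair of Cpne3 probe sets below the filter read 0.613 to 29.2 units in the arrays labelled double knockout, against 4.35 to 48.4 in wild type.

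Cpne1, which has been reported to bind the p65 subunit of NF-kB, read 269, 282 and 290 units in the arrays labelled double knockout, against 305, 242 and 330 in wild type. Cpne2 read 119, 106 and 107 units in the arrays labelled double knockout, against 126, 61.6 and 135 in wild type. In both the double knockout values fell inside the wild type range, and the log2 differences were -0.04 (SE 0.13) for Cpne1 and 0.09 (SE 0.23) for Cpne2. They were 0.045 for Cpne1 without wild type replicate 3 and -0.21 for Cpne2 without wild type replicate 2. In all, the groups did not overlap for 4 of the 12 tested copine probe sets (Cpne9, Cpne5, 1 of Cpne8 and 1 of Cpne3), against 22.3% of all tested probe sets.

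**Figure D2:**
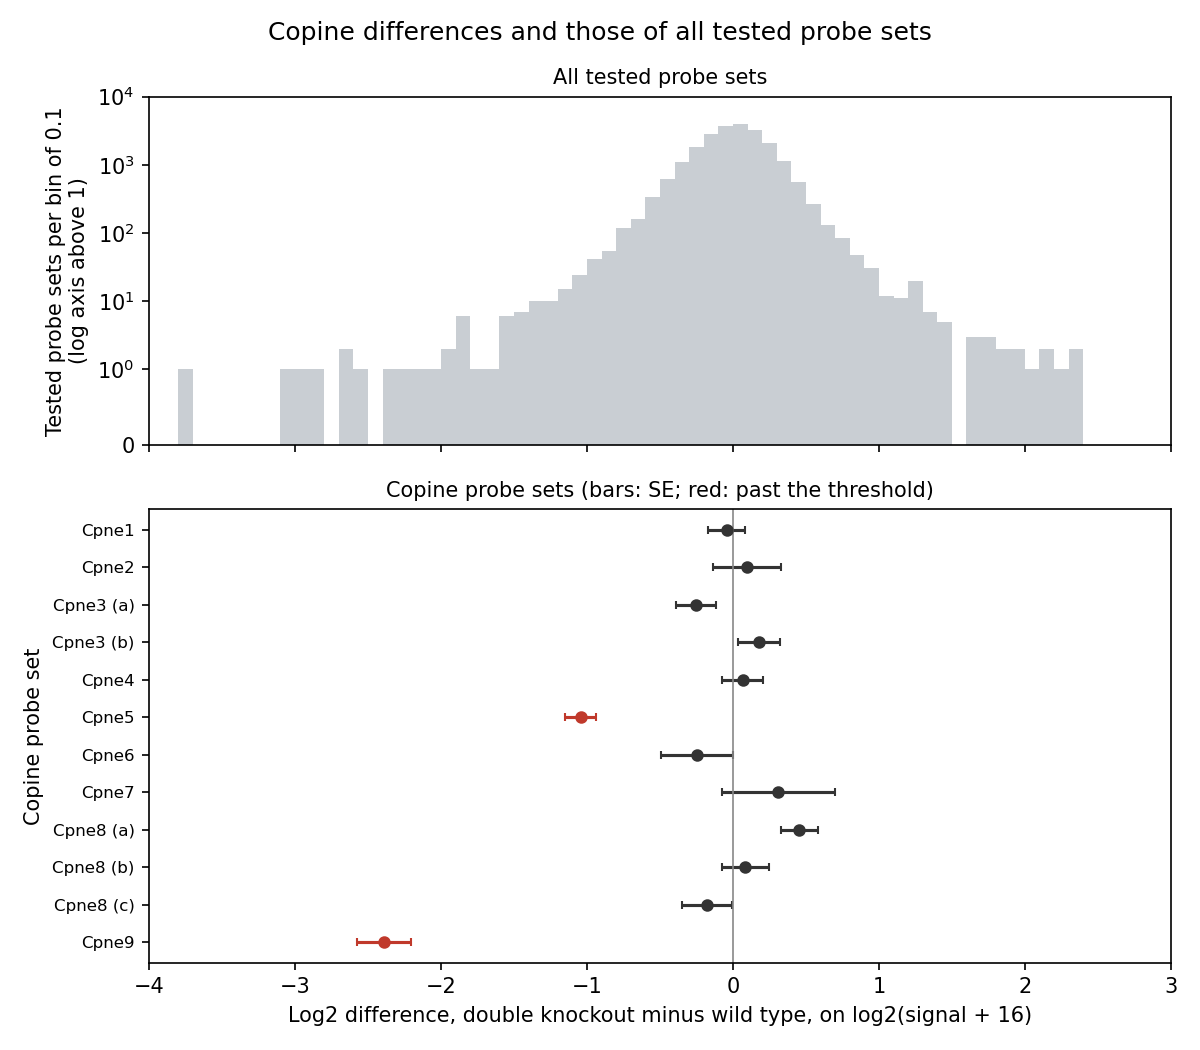
Log2 difference, double knockout minus wild type, on the log2(signal + 16) scale. The upper panel counts all 22518 tested probe sets per bin on a log axis, and the lower panel gives the 12 copine probe sets with their SE, those past the threshold in red. Cpne9 at -2.39 and Cpne5 at -1.04 lie in the lower tail, and the other 10 lie between -0.25 and 0.46.

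The spread among arrays of 1 group did not enter the choice of the family. Cpne7, Cpne6 and Cpne2 were among the 5% of tested probe sets with the widest spread in wild type. Their SDs of log2(signal + 16) were 1.004, 0.63 and 0.53, larger than those of 99.6%, 98.4% and 97.2% of tested probe sets. The highest wild type array was 4.52-fold the lowest for Cpne7, 2.42-fold for Cpne6 and 2.20-fold for Cpne2. In the arrays labelled double knockout 0 of the 12 copine probe sets lay in the widest 5%, and the SDs of these 3 were 0.19, 0.07 and 0.08. At the other end, Cpne5 had an SD of 0.02 in wild type, and 0.666% of tested probe sets had a smaller one. Over all tested probe sets the median SD was 0.14 in the arrays labelled double knockout and 0.17 in wild type. Across the family 7 of the 12 copine probe sets had the larger SD in wild type, against 59.8% of all tested probe sets.

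Several copines shared an order of the wild type arrays. Cpne1, Cpne2, Cpne4, Cpne6 and Cpne7 were each lowest in wild type replicate 2 and highest in wild type replicate 3. That makes 5 of 12 copine probe sets (41.7%), against 17.4% of all tested probe sets. The order was picked after these copine values were seen, so its larger share among them is partly built in and nothing is read from it. Wild type replicate 3 also stood apart in markers of choroid plexus, of which 5 of 8 lay above the filter and none was at 0. Their summed signal was 160 to 4874 units in the arrays labelled double knockout, against 225 to 11132 in wild type, with the highest value in wild type replicate 3. Double knockout replicate 1, at 4874 units, held the next highest sum, with a Ttr signal of 4697. Its Folr1, Clic6, Kcnj13 and Sostdc1 signals were 29.8, 30.6, 75.1 and 41.8, against 245, 110, 281 and 149 in wild type replicate 3. The Cpne7 signal of double knockout replicate 1 was 240. Striatum markers, 7 of 10 above the filter, summed to 1229 to 1474 units in the arrays labelled double knockout, against 1568 to 2034 in wild type. The sum was again highest in wild type replicate 3, but the markers were not alike. Among wild type arrays Ppp1r1b, Rgs9 and Rarb were highest in replicate 3, Drd1, Pde10a and Tac1 in replicate 2, and Penk in replicate 1. Hippocampus markers, 5 of 10 above the filter, summed to 1484 to 1999 units in the arrays labelled double knockout, against 1395 to 1832 in wild type. Wfs1 and Ociad2 were the brightest of them and weighed most in these sums. Among wild type arrays Fibcd1, Grik4 and Wfs1 were highest in replicate 3, Ociad2 in replicate 2 and C1ql2 in replicate 1. Fibcd1 read 35.4, 65.6 and 44.8 units in the arrays labelled double knockout, against 59.3, 23.5 and 162 in wild type. Excitatory neuron markers were lowest in wild type replicate 3, at 11090 units. The part of these cell types in the order of the copines was not tested.

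**Figure D3:**
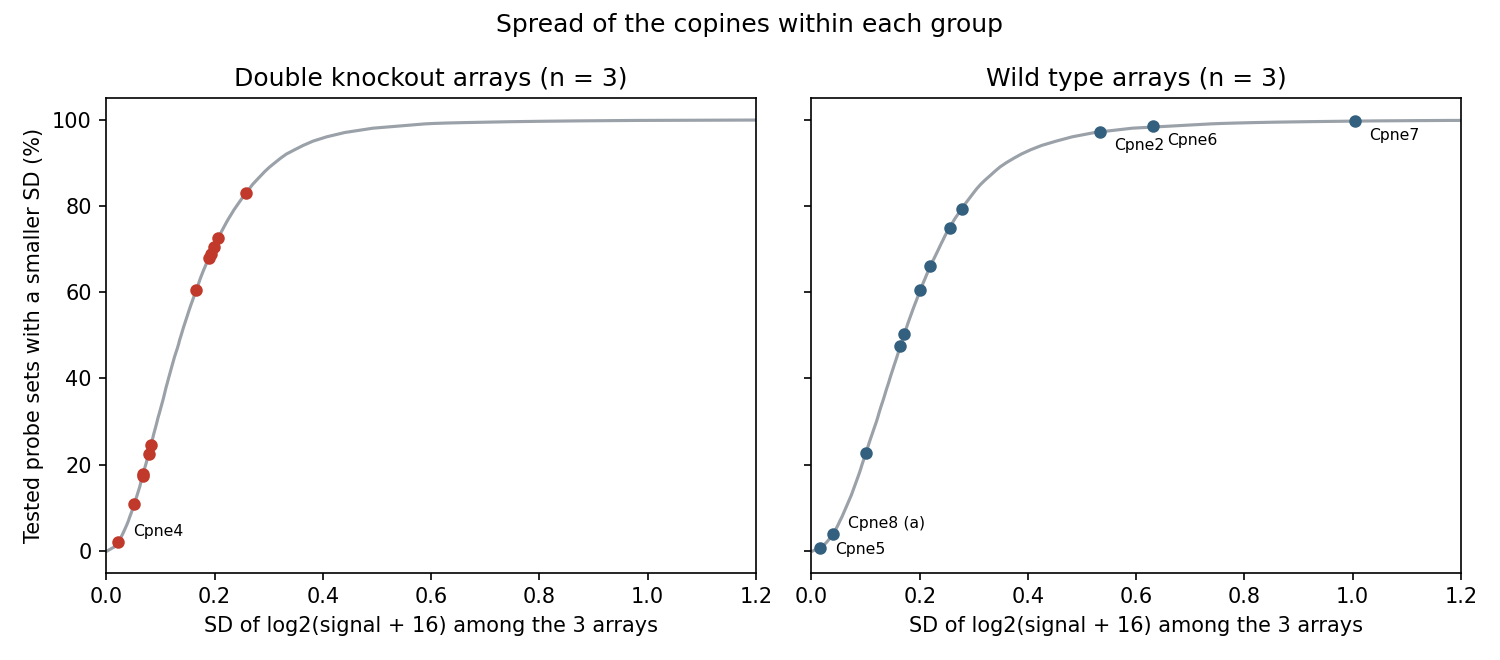
Standard deviation of log2(signal + 16) among the 3 arrays of a group (horizontal axis) against the percentage of tested probe sets with a smaller one (vertical axis), with arrays labelled double knockout on the left and wild type on the right. The grey line is all tested probe sets and each point a copine probe set. Cpne2, Cpne6 and Cpne7 lie at the top of the wild type panel and Cpne5 at its foot.

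The genes most like Cpne9 over the arrays were sought by Pearson's r of log2(signal + 16) over the 6 arrays, among 11052 other genes. The 8 highest were Vkorc1l1, Vamp4, Cdh10, Epb41l1, Commd10, Prkag2, Hnrnpr and Zdhhc14, with r from 0.996 to 0.989. The arrays fall into 2 groups that differ in Cpne9, and 160 genes had an r above 0.95. Vkorc1l1, a vitamin K epoxide reductase, read 139, 130 and 139 units in the arrays labelled double knockout, against 208, 194 and 191 in wild type. Vamp4, a SNARE protein of vesicle fusion, read 174, 165 and 167 units in the arrays labelled double knockout, against 225, 225 and 220 in wild type. Both were lower in all 3 double knockout arrays, with log2 differences of -0.49 and -0.37, smaller than that of Cpne9. Cdh10, a cadherin, and Epb41l1, a protein of the membrane skeleton, differed by -0.37 and -0.38. Cpne5 came 15th in this order, with an r of 0.987.

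The same ranking was made for Cpne5 and Cpne7 after their values had been seen. The genes most like Cpne5 were Tnnc1 (r = 0.999), a troponin C, and Vamp4 (r = 0.997), and 152 genes had an r above 0.95. Vamp4 ranked second for both Cpne9 and Cpne5. Since both copines differ between the groups, with an r of 0.987 between them, shared genes follow from that difference and nothing is read from them. Tnnc1 read 48.5, 34.7 and 29.03 units in the arrays labelled double knockout, against 421, 386 and 340 in wild type. Pcdhb9, a clustered protocadherin (r = 0.996), read 36.6, 29.8 and 27.7 units in the arrays labelled double knockout, against 157, 186 and 163 in wild type. For Cpne7, whose groups overlapped, the list was led by Tada2a (r = 0.997), Maged1 (r = 0.991) and Man2c1 (r = 0.988), with 36 genes above 0.95. Over 6 arrays and 11052 genes, each by its most alike probe set, such r values can arise by chance. How many would do so was not tested, and nothing is read from this list. Tada2a, a subunit of histone acetyltransferase complexes, read 291, 294 and 318 units in the arrays labelled double knockout, against 277, 233 and 347 in wild type. It shared the low wild type replicate 2 and the high wild type replicate 3 of Cpne7, with much smaller steps.

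Genes near the copines in function were listed in 3 groups, each gene by its brightest tested probe set, and over all 11053 genes 1.22% were called that way. Of 32 other genes for C2 domain proteins, such as Doc2, rabphilin, Rims and protein kinase C genes, 20 were measured, 0 rose, 1 fell and 19 did not pass. The one was Nedd4l, a ubiquitin ligase with a C2 domain, at 399, 328 and 384 units in the arrays labelled double knockout, against 503, 626 and 598 in wild type. Its log2 difference was -0.61 (SE 0.12, limma adjusted p = 0.0497), and its other 5 tested probe sets, at -0.44 to -0.08, did not pass. The call was lost in 13 of 15 alternatives, and without each array in turn. The list's median log2 difference was -0.01, against 0.01 for all genes. Unc13a, a priming factor of synaptic vesicles, read 358, 388 and 382 units in the arrays labelled double knockout, against 558, 514 and 440 in wild type (log2 -0.40, limma adjusted p = 0.129). Rasal1 lay the other way, at 461, 445 and 541 units in the arrays labelled double knockout, against 329, 214 and 426 in wild type (log2 0.60, limma adjusted p = 0.193). Of the 20 genes 10 were lower and 10 higher.

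Annexins are another large family that binds membranes through calcium, and of 12 listed 7 were measured and 0 passed in limma. At an unadjusted p under 0.05 stood 3 of the 7, against 17.5% of all 11053 genes. Anxa6 read 215, 182 and 180 units in the arrays labelled double knockout, against 277, 308 and 251 in wild type (log2 -0.50, SE 0.13, limma adjusted p = 0.0984). Anxa5 read 421, 256 and 306 units in the arrays labelled double knockout, against 443, 455 and 475 in wild type (log2 -0.49, SE 0.16, limma adjusted p = 0.175). The third, Anxa1, lay the other way, at 88.4, 51.8 and 55.9 units in the arrays labelled double knockout, against 40.9, 42.3 and 38.3 in wild type (log2 0.50, SE 0.19, limma adjusted p = 0.228). The annexin median was 0.10, since 5 of the 7 were higher.

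Of 15 genes whose products have been reported to bind a copine 12 were measured, and 0 passed in limma, with 0 at an unadjusted p under 0.05. Their median was 0.01. Cops5, a subunit of the COP9 signalosome, read 979, 950 and 956 units in the arrays labelled double knockout, against 855, 801 and 856 in wild type (log2 0.20, limma adjusted p = 0.312). Rac1, the partner of Cpne6 in spines, read 3936, 4076 and 4101 units in the arrays labelled double knockout, against 3256, 3212 and 3993 in wild type (log2 0.22, limma adjusted p = 0.372).

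Some markers of other cell types and a measure of RNA quality also stood apart between the groups, beside Cpne9 and Cpne5. Microglia markers, all 9 above the filter and none at 0, summed to 2796 to 3660 units in the arrays labelled double knockout, against 3724 to 4517 in wild type. All 9 had lower mean log2 values in the arrays labelled double knockout and 5 of the 9 did not overlap, against 23.3% of all genes, but 0 passed in limma, with 6 at an unadjusted p under 0.05. Astrocyte markers, all 8 above the filter, had overlapping sums, at 17114 to 17149 units in the arrays labelled double knockout, against 14928 to 18054 in wild type, while 4 of the 8 did not overlap and 1 passed. That one was Aqp4, the water channel of astrocyte endfeet, at 592, 391.9 and 499.8 units in the arrays labelled double knockout, against 970.0, 972 and 958 in wild type. Its log2 difference was -0.96 (SE 0.14, limma adjusted p = 0.0139), and it no longer passed when double knockout replicate 3 (-0.98, limma adjusted p = 0.067) or wild type replicate 1 (-0.96, limma adjusted p = 0.0568) was left out. S100b, a calcium-binding protein of astrocytes, did not pass at -0.52 (SE 0.12, limma adjusted p = 0.072). Gfap, without overlap, did not pass at -0.83 (SE 0.34, limma adjusted p = 0.258). Slc1a3, also without overlap, lay the other way at 0.38 (SE 0.10, limma adjusted p = 0.118). Of the 8 astrocyte markers 5 were lower and 3 higher. Interneuron markers, all 10 above the filter, summed to 8939 to 9178 units in the arrays labelled double knockout, against 8856 to 9322 in wild type, and 1 of them passed. Vip, the neuropeptide of an interneuron class, read 1740.2, 1843 and 1557 units in the arrays labelled double knockout, against 1130, 1262 and 1096 in wild type (log2 0.55, SE 0.11, limma adjusted p = 0.0453). The call was lost with any 1 array but wild type replicate 2 left out, at limma adjusted p = 0.0761 to 0.194.

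Oligodendrocyte markers, 8 of 9 above the filter, summed to 19412 to 22811 units in the arrays labelled double knockout, against 17068 to 18873 in wild type. The sums did not overlap, but 6 of the 8 markers overlapped and 0 passed in limma, with 2 at an unadjusted p under 0.05. Mbp, a myelin protein, averaged 9684 units in the arrays labelled double knockout and 7608 in wild type. It was the brightest of the 8 and so weighed most in these sums. Its lowest double knockout signal, 9231, barely exceeded its highest wild type signal, 9228. Of the 8 markers 6 were higher and 2 lower, Mobp with a log2 difference of -0.05 and Ermn with -0.50. For Mobp, Opalin and Ermn, double knockout replicate 2 was the lowest of all arrays. The separation of the sums was therefore not shared by the markers as a set. The striatum sums given above did not overlap either, though 6 of the 7 markers did. Penk, an opioid peptide precursor, read 285, 178 and 185 units in the arrays labelled double knockout, against 724, 201 and 703 in wild type. The Gapdh control ratio, 3′ over 5′ signal, which reads RNA quality, was 0.881 to 0.9497 in the arrays labelled double knockout, against 0.806 to 0.873 in wild type, without overlap. The nearest arrays of the groups, at 0.881 and 0.873, lay close together. On every array the 3′ signal was below the 5′ signal, so none showed an excess of 3′ signal. The 13 cortical layer markers above the filter had a median log2 difference of -0.02, 7 lower and 6 higher, with 0 called in limma. At an unadjusted limma p under 0.05 stood 2 of the 13, against 17.5% of all genes. Both were higher, Fezf2 at 0.48 (SE 0.10, limma adjusted p = 0.0586) and Crym at 0.86 (SE 0.28, limma adjusted p = 0.170). Crym read 1170, 1089 and 1425 units in the arrays labelled double knockout, against 635, 416 and 1100 in wild type. The sums of the layer markers overlapped, at 9638 to 10526 units in the arrays labelled double knockout, against 9352 to 10949 in wild type. The part of these markers and of RNA quality in the copine differences was not tested.

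**Figure D4:**
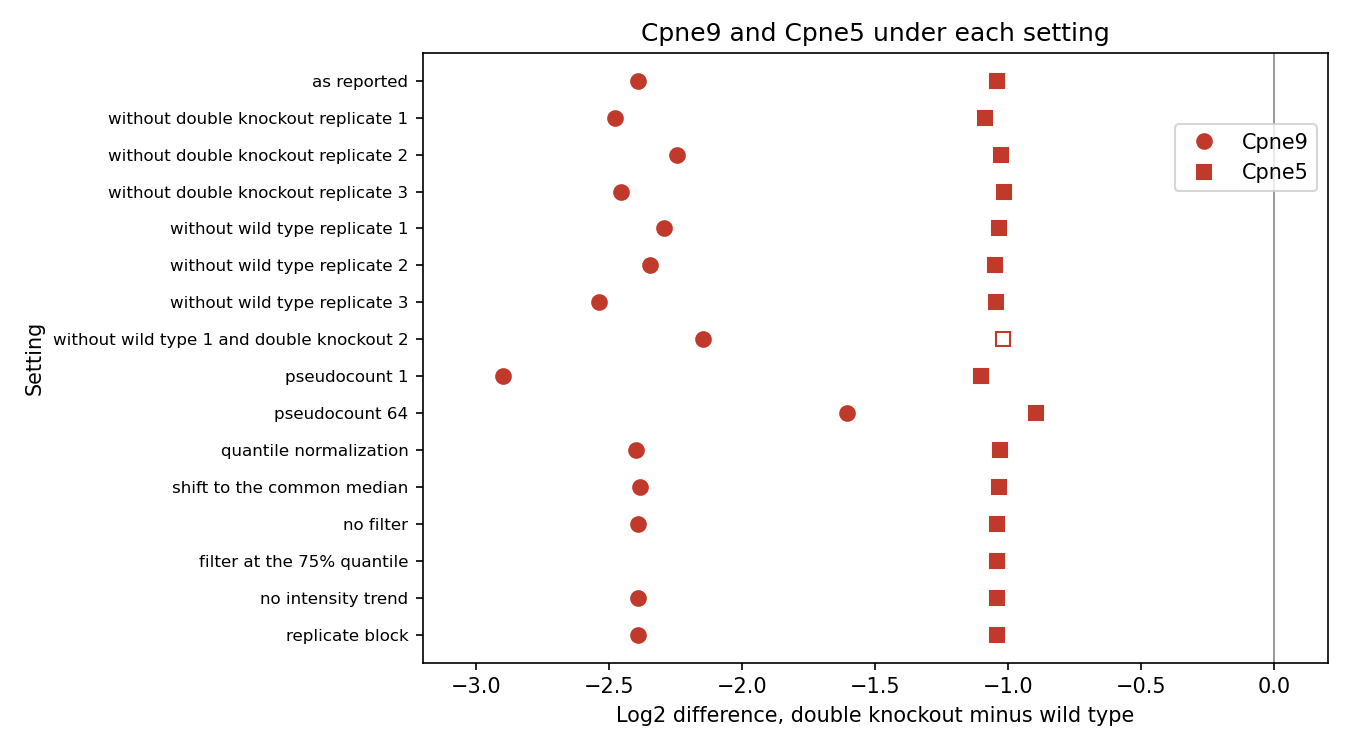
Log2 difference, double knockout minus wild type, of Cpne9 (circles) and Cpne5 (squares) as reported and under each alternative setting (rows), filled where past the threshold. Cpne9 runs from -2.90 to -1.61 and was not measured with the filter at the 75% quantile; Cpne5 runs from -1.10 to -0.89, with 1 open square where wild type 1 and double knockout 2 were both left out.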

How the data were processed

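The authors deposited 1 linear intensity per probe set and array, already scaled: the trimmed mean (2% at each end) was 150.001 on all 6 arrays. Software, settings and genome build are not given in the sources used here. Names came from the platform's annotation, updated through RefSeq's GRCm38.p6 table. Signals under 1 were set to 1 and log2(signal + 16) was taken, a scale on which folds of dim probe sets come out too small. Of 45037 probe sets (64 controls aside) 22518 passed the filter and entered limma 3.58.1 in R 4.3.3 (group as the only term, intensity trend, two-sided, Benjamini-Hochberg over all). Other values came from Python 3.11.15 and figures from matplotlib 3.10.9. The fit was tested on simulated data.

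The members, lists and tests were chosen with earlier results of these data known. The text names all copine probe sets, Egr1, Egr3, members of the pathway lists past the threshold (else the 2 with the smallest p) and the 8 genes most like Cpne9. Unc13a, Rasal1, Anxa1, the cell type markers with values, Tada2a and the others like Cpne5 or Cpne7 were named after their values were seen. The order of the wild type arrays was likewise picked after the copine values were seen. Alternatives were other pseudocounts, normalizations and filters, no trend, a replicate block and arrays left out. Same-numbered arrays did not deviate together (r of deviations -0.15, 0.0013 and -0.10), so the comparison is unpaired. The results of 1 further gene list are not reported here.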

Additional observations from a re-analysis of the deposited data

How the results depend on the processing

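The copine differences were known before the family was chosen, so their counts are a record and no sign of stability. The count past the threshold was 2 in 13 of 15 alternatives (2 to 2 with 1 array left out). With double knockout replicate 2 and wild type replicate 1 both left out the count was 1, Cpne5 falling short, and with the filter at the 75% quantile it was 1, Cpne9 then being too dim to test. The Cpne9 difference was -2.54 to -2.24 with 1 array left out. The count over all probe sets, 229, was 34 to 292 with 1 array left out, 12 without both those arrays, 10 without the filter and 131 without the intensity trend. The Egr1 and Egr3 count of 1 was 0 to 2 with 1 array left out, and 0 without both those arrays, without the filter and without the intensity trend. The C2 domain count of 1 was 0 with any array left out, without both those arrays, and with quantile normalization, the common median, a pseudocount of 1, no trend, no filter or the replicate block. With the replicate block the copine count was 2 and the count over all probe sets was 182. Differences near 0 changed sign with 1 array left out: Cpne1 from -0.17 to 0.045, Cpne2 from -0.21 to 0.27, Cpne4 from -0.037 to 0.22, Cpne6 from -0.56 to 0.071, Cpne7 from -0.19 to 0.82 and the middle Cpne8 probe set from -0.0082 to 0.19. Leaving out wild type replicate 2 turned Cpne2, Cpne4 and Cpne7, wild type replicate 3 turned Cpne1 and Cpne6, and double knockout replicate 3 turned Cpne8. The annexin median of 0.10 ran from -0.49 with the filter at the 75% quantile to 0.16. The Aqp4 call was lost in 4 of 15 alternatives and the Vip call in 10 of 15, both of them without the filter and without both those arrays.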
